A study of Mus musculus with 8 samples.

Results

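Amino acid transporters of activated T cells are described here through 10 genes, *Slc7a5*, *Slc3a2*, *Slc7a6*, *Slc43a1*, *Slc7a1*, *Slc1a4*, *Slc1a5*, *Slc38a1*, *Slc38a2* and *Slc6a9*, chosen by symbol from 55536 genes in the count files. All 10 symbols matched 1 Ensembl gene each (GRCm38, Ensembl 96), and all 10 passed the filter on low counts, which 11189 genes passed in all. The cells were CD8+ T cells from C57BL/6 mice that carry the OT-I transgenic receptor, specific for SIINFEKL, a peptide of ovalbumin. The study describes the donor mice of all its experiments as backcrossed to a *Rag1* knockout background. In both groups, lymph node cells were cultured with 100 nM peptide for 2 days, washed, and kept for 2 further days in recombinant human IL-2 at 20 ng/ml. For the IL-2 days, 10 µM GC7 was added to 4 cultures (GC7), and the acetic acid vehicle was added to the other 4 (Mock). GC7 is a spermidine derivative that blocks deoxyhypusine synthase, the enzyme that starts the hypusine modification of the translation factor eIF5a, and it is described as having further effects that do not run through eIF5a. Replicates are described as biological, without saying which animal each came from, and the treatment was given to whole cultures.

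Activated T cells grow and divide quickly, and they take up amino acids both as building blocks and as signals to the growth kinase complex mTORC1. CD98 is a dimer in which the glycoprotein heavy chain SLC3A2 carries a light chain such as SLC7A5 (LAT1), the main carrier of leucine and other large neutral amino acids in these cells. The light chain exchanges substrates, so leucine import depends on other carriers, among them SLC1A5 and the sodium-coupled SLC38 family, that load the cell with glutamine and small neutral amino acids. In T cells, the transcription factor MYC is known to sustain several of these carriers, and ATF4 induces many of them when amino acids are short.

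In GC7-treated cells, 6 of the 10 mRNAs rose at an FDR under 0.01 (*Slc6a9*, *Slc1a4*, *Slc7a1*, *Slc38a1*, *Slc7a6* and *Slc1a5*), none fell, and 4 did not pass the test (*Slc7a5*, *Slc3a2*, *Slc38a2* and *Slc43a1*). Of all genes tested, 23% were called higher, 23.5% lower and 46.6% in either direction. Only *Slc6a9* rose by more than 2-fold (3.17% of all genes tested did so). The 6 genes were also those for which every GC7 library lay above every Mock library, which was the case for 28.1% of all genes tested (27.5% were below in every GC7 library, 55.6% apart in either direction). The median log2 fold change of the 10 genes was 0.42, beside 0.02 over all genes tested. The 10 genes were chosen with earlier results of these data known, so these comparisons do not test the list. The calls were made with edgeR's quasi-likelihood test with Benjamini-Hochberg adjustment over all tested genes.

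Values are CPM, counts scaled to the library's total over the tested genes times its TMM factor. Total counts over all genes ranged from 17528776 to 25284730 per library. GC7 replicate 3 was the smallest library, and among the GC7 libraries it was the lowest for 7 of the 10 transporters, while Mock replicate 2 was the largest library and the lowest Mock library for 7 of them. Results that either library decides are given with and without it. The CD8 T cell markers summed to 2638 to 3215 CPM in Mock and 2562 to 2763 CPM in GC7 libraries, but these sums hold changes in both directions. *Cd8a* rose (log2 fold change 0.48), and *Cd2* (-0.61), *Cd3g* (-0.37) and *Cd3e* (-0.23) fell. Of the 6 markers, 5 were lower in every GC7 library than in every Mock library, beside 27.5% of all genes tested. Their part in the results below was not tested. Of 20 marker genes of CD4 T, B, myeloid, NK, erythroid and stromal cells, 3 passed the filter, *Cd79b*, *Cd68* and *Pecam1*, and the defining B cell genes *Ms4a1* and *Pax5* had no count in any library. Summed over each list, the B cell markers lay between 7.02 and 10.1 CPM in Mock and between 4.63 and 5.93 CPM in GC7 libraries, and the myeloid and dendritic markers between 8.77 and 11.5 and between 6.10 and 9.71 CPM. The single CD4 marker stayed between 0.128 and 0.373 CPM in Mock and 0.112 and 0.410 CPM in GC7 libraries, the NK markers between 0.0425 and 0.251 and between 0.0558 and 0.728 CPM, and the erythroid and stromal markers, nearly all of it *Pecam1*, between 51.9 and 56.5 and between 30.4 and 32.7 CPM. In bulk RNA, fewer cells that express a gene and less of its mRNA per cell cannot be told apart.

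**Figure D1:**
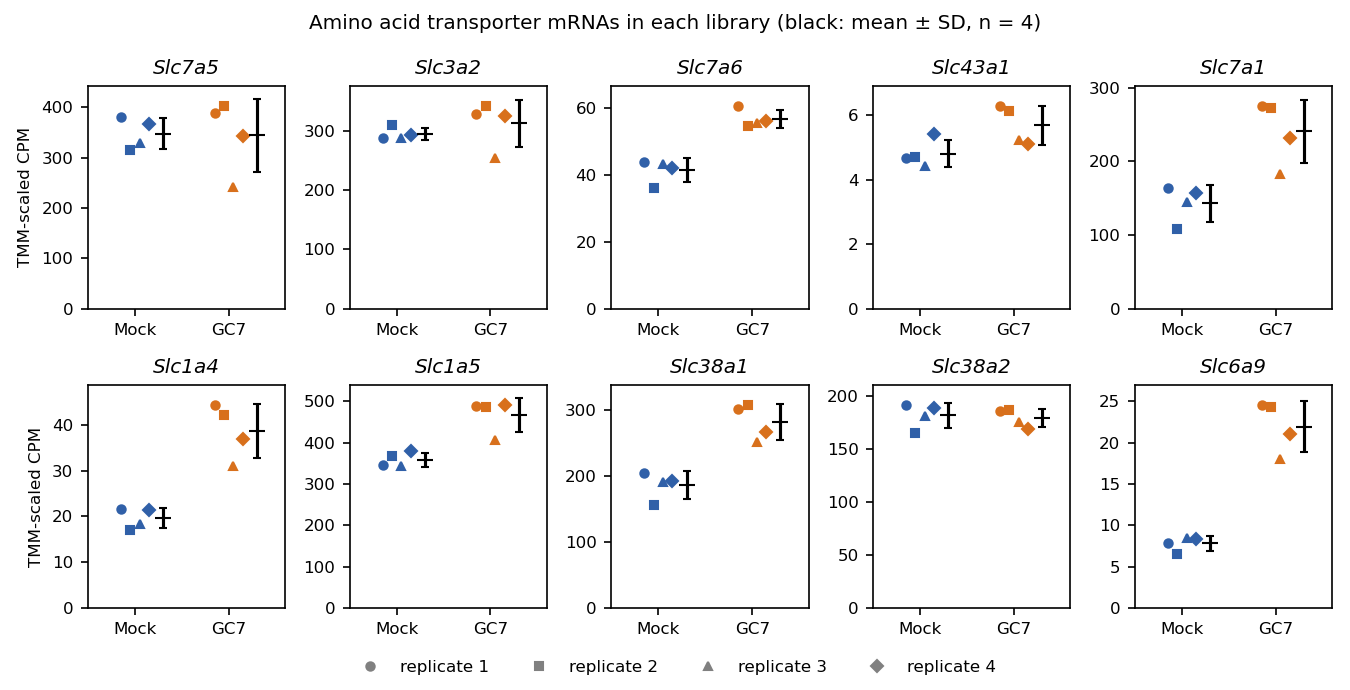
TMM-scaled CPM of the 10 transporter mRNAs in each of the 4 Mock (blue) and 4 GC7 libraries (orange), with symbols for the replicate number and the mean ± SD in black, every axis starting at 0. The GC7 points lie above all Mock points for *Slc7a6*, *Slc7a1*, *Slc1a4*, *Slc1a5*, *Slc38a1* and *Slc6a9*, and they overlap for *Slc7a5*, *Slc3a2*, *Slc43a1* and *Slc38a2*.

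Promoter sequences are shown for the members in which either of 2 searched motifs was found, as context for the factors named above. RefSeq promoters (GRCm38.p6, 250 bases before to 50 after the annotated start) were present for 7 of the 10 genes, 11 promoters in all. They were searched on both strands for TGATGNAA, the core of the element that ATF4 dimers bind, and for CACGTG, the E-box that MYC and related factors bind. In the sequences, capitals mark the match.
Slc1a4, chr11:20332664-20332963, minus strand: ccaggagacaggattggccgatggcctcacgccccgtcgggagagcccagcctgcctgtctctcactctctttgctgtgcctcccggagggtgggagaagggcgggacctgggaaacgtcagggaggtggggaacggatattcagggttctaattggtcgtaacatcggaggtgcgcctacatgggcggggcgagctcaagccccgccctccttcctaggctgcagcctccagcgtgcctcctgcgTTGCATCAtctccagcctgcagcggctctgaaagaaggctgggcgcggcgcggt
Slc43a1, chr2:84840073-84840372, plus strand: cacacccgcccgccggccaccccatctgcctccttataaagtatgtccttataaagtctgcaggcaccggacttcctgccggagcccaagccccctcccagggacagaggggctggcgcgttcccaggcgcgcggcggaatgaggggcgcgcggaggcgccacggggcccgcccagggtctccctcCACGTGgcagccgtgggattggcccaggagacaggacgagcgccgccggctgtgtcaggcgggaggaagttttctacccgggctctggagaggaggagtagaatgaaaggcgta

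The match to TGATGNAA in *Slc1a4* lay on the opposite strand, from base 247 of the window, so that it spans the annotated start. This motif was in 1 of the 11 member promoters and in 3.97% of all 32851 promoters (2.25% of those of tested genes). CACGTG was found in *Slc43a1* only among the members, at base 187, and in 7.15% of all promoters (10.3% of those of tested genes). The 2 motifs share no overlapping match here. Of these 2 genes, *Slc1a4* rose after GC7 and *Slc43a1* was not called. Such a match describes letters in the window, and windows without one, as for *Slc3a2*, *Slc7a1*, *Slc7a6*, *Slc38a2* and *Slc6a9*, say nothing about the factor. *Slc7a5*, *Slc1a5* and *Slc38a1* had no entry.

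*Slc3a2* (ENSMUSG00000010095, chromosome 19, 8706882 to 8723369, minus strand) encodes the CD98 heavy chain, which brings its light chains to the cell surface. Its mRNA was at 288, 309.6, 287 and 292 CPM in Mock replicates 1 to 4, and at 328, 341, 255 and 324 CPM in GC7 replicates 1 to 4. GC7 replicates 1, 2 and 4 lay above every Mock library and GC7 replicate 3 below all of them, so the groups overlapped. On the log2 scale the change of 0.08 was within the spread between replicates (95% interval -0.10 to 0.27). Without GC7 replicate 3 it was 0.18, which did not pass the threshold (adjusted p = 0.0150, edgeR), and without both GC7 replicate 3 and Mock replicate 2 it was 0.20 and passed (adjusted p = 4.8e-04, edgeR).

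*Slc7a5* (ENSMUSG00000040010, chromosome 8, 121881150 to 121907694, minus strand) encodes LAT1, the CD98 light chain that carries leucine, phenylalanine, tryptophan and other large neutral amino acids in exchange for glutamine. It was at 380.2, 316, 329 and 367 CPM in the Mock libraries and at 388, 402, 242 and 344 CPM in the GC7 libraries. The GC7 group held both the highest and the lowest of the 8 values. The coefficient of variation was 8.83% in Mock and 21.1% in GC7 libraries, and the 95% interval of the log2 fold change ran from -0.31 to 0.27. The estimate itself was -0.02 (adjusted p = 0.927, edgeR). It was 0.13 without GC7 replicate 3 (adjusted p = 0.208, edgeR) and 0.0781 when scaled by library totals, so its sign depended on both.

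*Slc7a6* (ENSMUSG00000031904, chromosome 8, 106168857 to 106198706, plus strand) encodes y+LAT2, a CD98 light chain that exchanges cationic for neutral amino acids. It rose from 43.9, 36.0, 43.2 and 42.0 CPM in Mock to 60.5, 54.7, 55.4 and 55.9 CPM in GC7 libraries. All GC7 libraries lay above all Mock libraries, and GC7 replicate 3 was not the lowest of its group here. This was a log2 fold change of 0.46 (SE 0.0746, adjusted p = 2.2e-04, edgeR), a 1.37-fold rise. Of the 6 light chains listed as partners of the heavy chain, *Slc7a5* and *Slc7a6* passed the filter, and *Slc7a7*, *Slc7a8*, *Slc7a10* and *Slc7a11* did not, with at most 65 counts in any library.

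The subunits of CD98 can be compared within each library, which removes the scaling between libraries. The ratio of *Slc7a5* to *Slc3a2* counts was 1.32, 1.02, 1.14 and 1.26 in Mock and 1.18, 1.18, 0.949 and 1.06 in GC7 libraries. The 2 groups overlapped, and the mean log2 ratio differed by -0.12 between GC7 and Mock (two-sided exact permutation test, p = 0.343, the same after adjustment over 3 ratios). Per kilobase of exon, the 2 subunits were close to equal, with mean ratios of 1.13 in Mock and 1.04 in GC7 libraries.

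*Slc43a1* (ENSMUSG00000027075, chromosome 2, 84838850 to 84863594, plus strand) encodes LAT3, which carries large neutral amino acids down their gradient without exchange. It was the least abundant of the 10, at 4.67, 4.72, 4.43 and 5.41 CPM in Mock and 6.28, 6.14, 5.25 and 5.10 CPM in GC7 libraries. GC7 replicates 1 and 2 lay above every Mock library and the other two within the Mock range. The log2 fold change of 0.24 did not pass the test (95% interval -0.03 to 0.52, adjusted p = 0.112, edgeR), and with 91 to 135 counts per library it is the least precisely counted of the members.

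*Slc7a1* (ENSMUSG00000041313, chromosome 5, 148327410 to 148399904, minus strand) encodes CAT1, the main importer of arginine and other cationic amino acids in many cells. It rose from 163, 108, 144 and 157 CPM in Mock to 275, 272, 183 and 232 CPM in GC7 libraries. The lowest GC7 value exceeded the highest Mock value 1.12-fold, although both groups were spread widely, with coefficients of variation of 17.3% and 17.8%. Its log2 fold change was 0.75 (SE 0.142, adjusted p = 6.5e-04, edgeR). It was 0.87 without GC7 replicate 3, 0.63 without Mock replicate 2 and 0.75 without both.

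*Slc1a5* (ENSMUSG00000001918, chromosome 7, 16781340 to 16798274, plus strand) encodes ASCT2, an exchanger of glutamine, serine and other neutral amino acids, and was the most abundant member in GC7 libraries. It rose from 346, 366, 343 and 379 CPM in Mock to 489, 487, 406 and 489.9 CPM in GC7 libraries. GC7 replicates 1, 2 and 4 were nearly equal and GC7 replicate 3 stood below them, still above all Mock libraries. In log2 terms the rise was 0.38 (SE 0.0743, adjusted p = 7.9e-04, edgeR), the smallest of the 6 that passed. It was 0.45 without GC7 replicate 3 and 0.39 without Mock replicate 2.

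*Slc1a4* (ENSMUSG00000020142, chromosome 11, 20302180 to 20332713, minus strand) encodes ASCT1, the relative of ASCT2 that exchanges alanine, serine, cysteine and threonine. It rose from 21.7, 17.1, 18.4 and 21.4 CPM in Mock to 44.3, 42.2, 31.1 and 37.0 CPM in GC7 libraries. The groups were well apart, with the lowest GC7 library 1.43-fold above the highest Mock library. A log2 fold change of 0.98 (SE 0.117, adjusted p = 1.7e-05, edgeR) is a 1.97-fold rise, just under 2-fold. It passed 2-fold with library totals (1.07), with upper quartile factors (1.02), and without any 1 of Mock replicates 1 and 4 and GC7 replicates 3 and 4 (1.003 to 1.07 on the log2 scale).

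The 2 exchangers did not rise by the same amount. The ratio of *Slc1a5* to *Slc1a4* counts was 15.97, 21.4, 18.6 and 17.7 in Mock and 11.0, 11.5, 13.1 and 13.3 in GC7 libraries. Every GC7 ratio was below every Mock ratio, and the mean log2 ratio changed by -0.59 (two-sided exact permutation, p = 0.0286, or 0.0429 adjusted over 3 ratios). No smaller p than 0.0286 can be reached with 4 libraries in each group. *Slc1a5* remained far more abundant, with mean ratios per kilobase of exon of 17.3 in Mock and 11.5 in GC7 libraries.

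*Slc38a1* (ENSMUSG00000023169, chromosome 15, 96571418 to 96642913, minus strand) encodes SNAT1, which uses the sodium gradient to import glutamine and other small neutral amino acids. It rose from 205, 156, 191 and 192 CPM in Mock to 301, 306, 250.7 and 267 CPM in GC7 libraries. No GC7 library fell into the Mock range, the nearest being 1.22-fold above the highest Mock library. On the log2 scale the rise was 0.60 (SE 0.0924, adjusted p = 1.4e-04, edgeR), or 1.51-fold. Stretches of 200 to 291 bases of its transcripts match 2 other tested genes, *Xdh* and *Atg2b*, at 92.0% and 93.1% identity, and 1 match of 1450 bases is to a gene with at most 8 counts in any library.

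*Slc38a2* (ENSMUSG00000022462, chromosome 15, 96687392 to 96699730, minus strand) encodes SNAT2, a close relative of SNAT1 that cells are known to induce when amino acids run short. It was at 191, 165, 181 and 189 CPM in Mock and at 186, 187, 175 and 168 CPM in GC7 libraries. The GC7 values all lay inside the Mock range. The log2 fold change was -0.02 with a 95% interval from -0.16 to 0.12, the narrowest of the 10.

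The neighbouring genes *Slc38a1* and *Slc38a2* thus differed in their response. The ratio of *Slc38a1* to *Slc38a2* counts was 1.07, 0.942, 1.06 and 1.02 in Mock and 1.62, 1.64, 1.43 and 1.58 in GC7 libraries. All GC7 ratios were above all Mock ratios, with a difference of 0.62 in the mean log2 ratio (two-sided exact permutation, p = 0.0286, again the lowest value possible, or 0.0429 adjusted over 3 ratios). The mean ratios were 1.02 ± 0.0581 and 1.57 ± 0.0942 (SD, n = 4).

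**Figure D2:**
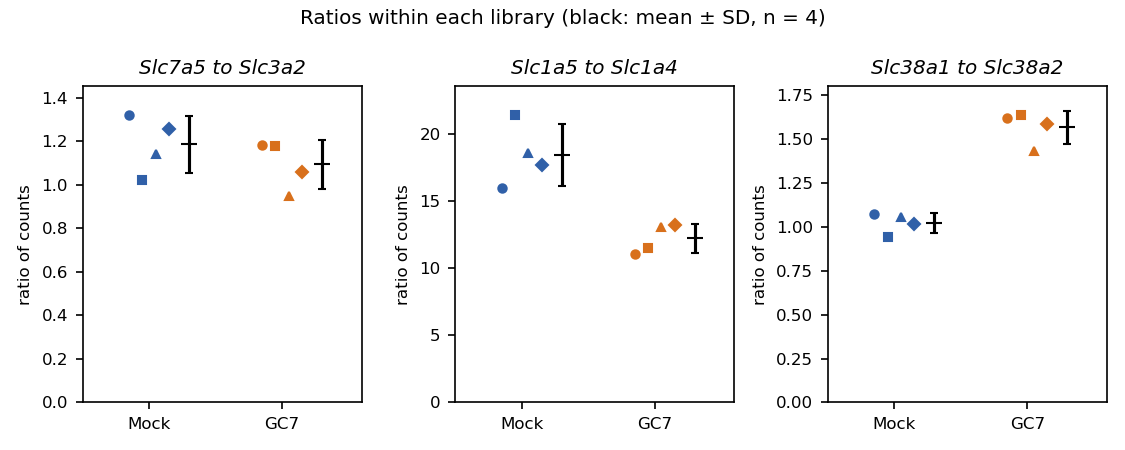
Ratio of counts of *Slc7a5* to *Slc3a2*, *Slc1a5* to *Slc1a4* and *Slc38a1* to *Slc38a2* in each Mock (blue) and GC7 library (orange), with the mean ± SD in black and axes from 0. The first ratio overlaps between the groups, the second is lower in every GC7 library and the third is higher in every GC7 library.

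*Slc6a9* (ENSMUSG00000028542, chromosome 4, 117834506 to 117875198, plus strand) encodes GlyT1, a sodium- and chloride-coupled glycine importer. It rose from 7.90, 6.55, 8.48 and 8.32 CPM in Mock to 24.5, 24.3, 18.0 and 21.01 CPM in GC7 libraries. Even the lowest GC7 library was 2.12-fold above the highest Mock library. A log2 fold change of 1.49 (SE 0.121, adjusted p = 6.4e-07, edgeR) is a 2.82-fold rise, the largest among the 10, from the second lowest level. The gene overlaps *B4galt2*, *Ccdc24* and *Gm17114* on the opposite strand. *B4galt2* had at least 85 counts per library, *Ccdc24* at most 2 and *Gm17114* none, and the counting is not stated to use strand. Its transcripts match those of *Ccdc24* over 1261 bases and of *Gm17114* over 388 bases, both at 100% identity.

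**Figure D3:**
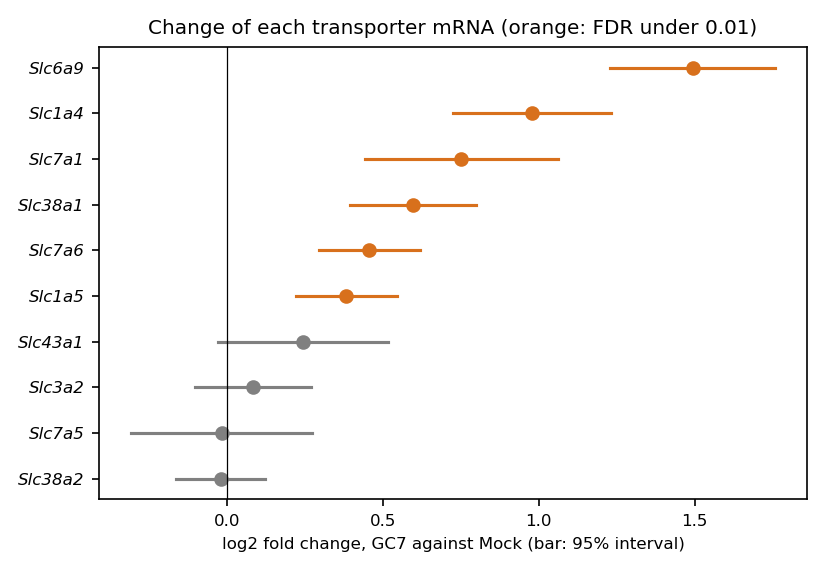
Log2 fold change of each transporter mRNA in GC7 against Mock libraries (point) with its 95% interval (bar), orange where the FDR was under 0.01 and grey otherwise. The intervals of *Slc7a5*, *Slc38a2*, *Slc3a2* and *Slc43a1* include 0, and *Slc6a9* is highest at 1.49.

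Levels between genes were compared as CPM per kilobase of exon, with the union of all annotated exons as length. For *Slc38a1* this union is 17236 bases, so a shorter form of the mRNA would have a higher level per kilobase than the value given. In Mock libraries, *Slc7a5* (93.8 ± 8.29, SD, n = 4), *Slc1a5* (86.0 ± 4.13) and *Slc3a2* (83.4 ± 2.96) led on this scale, and neighbours in that order overlapped between libraries. *Slc38a2* followed at 20.5, then *Slc7a1* at 12.4, *Slc38a1* at 10.8 and *Slc7a6* at 9.03, and neighbours among these last 3 genes overlapped. *Slc1a4* (5.01), *Slc6a9* (1.52) and *Slc43a1* (0.841) were each apart from the gene above.

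In GC7 libraries the order per kilobase changed at 2 places. *Slc1a5* led at 112 ± 9.86 (SD, n = 4), ahead of *Slc7a5* at 92.8 ± 19.6, with overlapping libraries. *Slc7a1* stood at 20.9, beside *Slc38a2* at 20.2, again with overlapping libraries. The lower part of the order, from *Slc38a1* at 16.3 to *Slc43a1* at 0.996, was the same as in Mock. Summed over the 10 genes, the level was 1585 ± 82.5 CPM in Mock and 1947 ± 231 CPM in GC7 libraries, where GC7 replicate 3, at 1621, lay within the Mock range of 1484 to 1653.

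**Figure D4:**
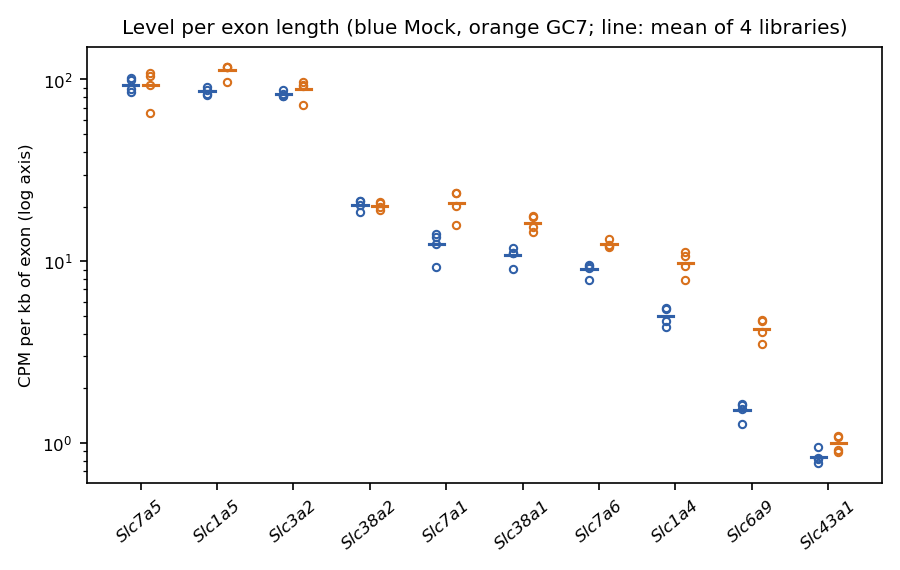
Level of each transporter mRNA as CPM per kilobase of exon on a log axis, each circle 1 library and each line the mean of 4, Mock in blue and GC7 in orange, ordered by the Mock mean. *Slc7a5*, *Slc1a5* and *Slc3a2* lie near 100, and *Slc43a1* near 1.

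The 5 genes whose profile over the 8 libraries was most like that of *Slc7a5*, by the root mean square difference of log2 CPM centred per gene, were *Enah* (0.0581), *Adcy3* (0.0680), *Gem* (0.0793), *Tmem201* (0.0809) and *Gclm* (0.0849). *Slc7a5* itself varied by 0.221 around its mean on that scale. In each of the 5, GC7 replicate 3 was the lowest of all 8 libraries, for example 22.2 CPM for *Adcy3* against 25.5 to 32.0 in the others. This follows from the choice by likeness, since *Slc7a5* itself was lowest in that library, and is no independent result. The heavy chain gene *Slc3a2* ranked at 157 of 11188 genes in likeness to *Slc7a5* (0.148), *Slc38a2* at 735 and the other members lower.

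Other amino acid transporters of the plasma membrane and lysosome were taken from a list of 46 genes, of which 12 passed the filter, 5 rose, 2 fell and 5 were not called. The share called in either direction (58.3%) stood beside 46.6% of all genes tested, and the median log2 fold change was 0.17. *Slc7a3*, a cationic amino acid transporter related to CAT1, rose from 16.6 ± 1.82 to 48.1 ± 6.11 CPM (SD, n = 4), a log2 fold change of 1.54 (adjusted p = 1.6e-07, edgeR). *Slc38a6* of the SNAT family rose by 1.11, *Slc16a10*, a carrier of aromatic amino acids, by 0.84, the lysosomal *Slc38a7* by 0.52 and the taurine transporter *Slc6a6* by 0.34 on the log2 scale. *Slc43a2*, which encodes LAT4 and is the relative of *Slc43a1*, went from 63.1 ± 4.25 to 42.4 ± 3.61 CPM, a fall (log2 fold change -0.57, adjusted p = 5.3e-05, edgeR). The 5 not called were *Slc36a4*, *Slc38a9*, *Slc38a10*, *Pqlc2* and *Ctns*, the last 2 being lysosomal exporters of cationic amino acids and of cystine. *Slc36a1*, a proton-coupled carrier of small amino acids on lysosomes, fell with a log2 fold change of -0.61 (adjusted p = 3.1e-04, edgeR).

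Among the 34 listed transporters below the filter, 11 had no count in any library. Among the others of these 34, *Slc7a11*, *Slc6a19* and *Slc36a3* were called in the fit without a filter, 1 higher and 2 lower. They are named after their values were seen, and the 11 without a count were not in that fit. Of the 28350 genes in that fit, 3335 were called higher and 3382 lower. There the SEs of *Slc7a5*, *Slc7a1* and *Slc38a2* were nearly equal (0.0807, 0.0804 and 0.0799), against 0.133, 0.142 and 0.0651 in the main fit. Its p-values thus follow each gene's replicate spread less closely, and they are not comparable with those of the main fit. *Slc7a11*, the cystine importer that also pairs with the CD98 heavy chain, had 17, 18, 21 and 18 counts in Mock and 64, 65, 35 and 61 counts in GC7 libraries. All GC7 counts exceeded all Mock counts, and its log2 fold change was 1.59 (adjusted p = 2.2e-09 over 28350 genes, edgeR). *Slc6a19*, a neutral amino acid transporter, had 12, 12, 25 and 27 counts in Mock and 5, 3, 5 and 6 in GC7 libraries (log2 fold change -1.98, adjusted p = 3.1e-05, edgeR). *Slc36a3* of the proton-coupled family had 40, 33, 47 and 45 counts in Mock and 13, 21, 19 and 26 in GC7 libraries (log2 fold change -1.07, adjusted p = 3.1e-04, edgeR). Both fell without overlap between the groups. All of these counts are small beside the 4331 counts or more of *Slc7a5* in each library.

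The regulators named above did not all stay level. *Myc* fell from 237 ± 15.04 to 131 ± 30.8 CPM (SD, n = 4), a log2 fold change of -0.85 (adjusted p = 2.7e-04, edgeR), with GC7 replicate 3 lowest at 86.2. *Atf4* mRNA was at 390.2 ± 29.8 and 361 ± 18.6 CPM and was not called (adjusted p = 0.180, edgeR), and ATF4 is controlled largely through translation, which these counts do not measure. Of 22 tested genes of the amino acid response to ATF4, 9 rose, 4 fell and 9 were not called, with a median log2 fold change of 0.10. The share called in either direction was 59.1%, beside 46.6% of all genes tested (23% higher, 23.5% lower). *Cth*, the enzyme that makes cysteine from cystathionine, had the largest rise (log2 fold change 3.46), followed by the leucine sensor gene *Sesn2* (1.37) and the stress gene *Nupr1* (1.19). *Vldlr*, a lipoprotein receptor, *Ddit4*, an inhibitor of mTORC1, and *Stc2*, a secreted glycoprotein, fell, with log2 fold changes of -0.90, -0.62 and -0.51, and the fourth that fell was *Eif4ebp1*.

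Of 9 genes for amino acid sensing, 4 rose (*Sesn2*, which the ATF4 list also holds, *Sesn3*, *Castor2* and *Lars*), 1 fell (*Castor1*, an arginine sensor, log2 fold change -0.99) and 4 were not called (55.6% called, beside 46.6% of all genes tested). *Sesn2* was the only one past 2-fold, at 50.8 ± 1.89 CPM in Mock and 131 ± 3.29 CPM in GC7 libraries (SD, n = 4). The mRNAs of the drug's target pathway gave no check of the labels, since GC7 acts on the enzyme and not on its transcript. *Dhps*, deoxyhypusine synthase, fell with a log2 fold change of -0.29 (adjusted p = 0.00638, edgeR), while *Eif5a* (-0.09) and *Dohh* (-0.40, adjusted p = 0.0218, edgeR) did not pass the threshold.

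Of 16 listed carriers of other nutrients, 5 rose, 4 fell and 7 were not called (56.2% called, beside 46.6% of all genes tested). Their median log2 fold change was 0.11. *Slc16a3*, the lactate exporter MCT4, fell from 554 ± 51.4 to 118 ± 33.9 CPM (SD, n = 4), and the glucose transporters *Slc2a3* and *Slc2a1* fell from 967 ± 67.0 to 270.02 ± 42.8 CPM and from 360.1 ± 10.5 to 139.5 ± 36.5 CPM, with log2 fold changes of -2.23, -1.84 and -1.37. More than 2-fold decreases like these were seen for 5.31% of all genes tested. Among those that rose were the inositol transporter *Slc5a3* (log2 fold change 1.38), the choline transporter *Slc44a1* (0.71) and the vitamin C transporter *Slc23a2* (0.44). Whether amino acid carriers as a class differ from the other carriers was not tested.

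**Figure D5:**
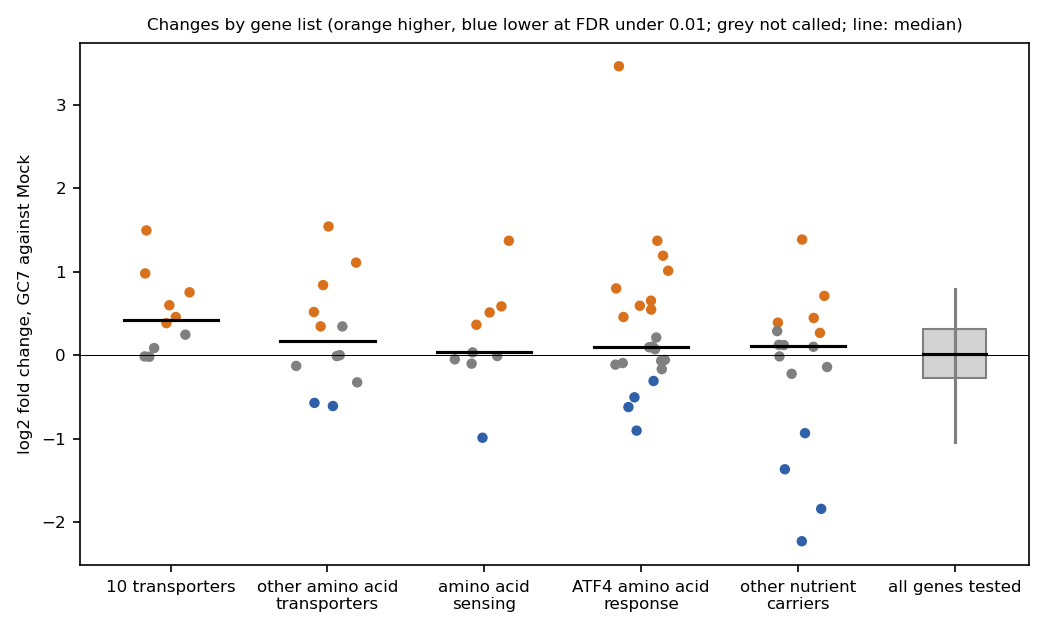
Log2 fold change in GC7 against Mock libraries for each tested gene of 5 lists (orange higher and blue lower at an FDR under 0.01, grey not called, black line the median), beside all genes tested (box 25th to 75th percentile, whisker 5th to 95th). No point of the 10 transporters is blue, and the lowest points of all are the glucose and lactate carriers at -1.37 to -2.23.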

How the data were processed

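Messenger RNA was sequenced from 4 Mock and 4 GC7 libraries, grouped by their labels. The authors deposited raw counts per Ensembl gene, 1 table per library, made from reads trimmed with Cutadapt, aligned to GRCm38 with STAR and counted with featureCounts. The strand setting and the handling of reads with several matches are not given in the sources used here. Gene symbols, positions and exon lengths come from GENCODE M21 (Ensembl 96), which matched all 55536 identifiers.

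Genes above 3 CPM in at least 4 libraries were tested (52.6 to 75.9 counts, by library). GC7 was compared with Mock by edgeR (version 4.0.16, R version 4.3.3) with TMM factors, the quasi-likelihood F test, the group as its only term and Benjamini-Hochberg adjustment over 11189 genes (FDR). Genes with an FDR under 0.01 were called. TMM scaling rests on most genes being level, and a global change in mRNA content per cell is invisible to it. SEs are the coefficient divided by the root of F. Log2 CPM had a prior count of 2. Ratios of counts were tested by two-sided exact permutation over the 8 libraries. The p-value is the share of the 70 relabellings with a difference in mean log2 ratio at least as large as that observed. All tests rest on these samples only. On simulated data for this comparison (11189 genes), 49 of 50 genes raised 2-fold, 49 of 50 lowered 2-fold, 39 of 50 raised 1.5-fold and 35 of 50 lowered 1.5-fold were called, with 2 false calls. Only these genes were changed in the simulation, equally up and down. In the real comparison 46.6% of genes were called, so these rates may not carry over. BLAST (version 2.17.0) was used to look for near-identical copies, taking hits over 200 bases or longer at 90% identity or higher. The members and gene lists were chosen with earlier results of these data known.

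Named are the 10 members, the other amino acid transporters that were called, up to 3 higher and 3 lower genes of the ATF4 and other carrier lists, sensing genes past 2-fold, *Myc*, *Atf4*, *Eif5a*, *Dhps* and *Dohh*, and the 5 genes most like *Slc7a5*. *Slc7a11*, *Slc6a19*, *Slc36a3*, *Eif4ebp1*, the transporters not called, the markers, the sensing genes under 2-fold and the genes sharing sequence with members fall outside this rule. The values of 1 listed carrier are not reported here. The alternatives were other scalings and filters, DESeq2 (version 1.42.0), limma-voom (limma version 3.58.1), the replicate number as a block, an FDR of 0.05, and each library left out.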

Additional observations from a re-analysis of the deposited data

Results flagged for a closer look

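A library was taken to stand apart from the other 3 of its group where its gap to the nearest of them, divided by the whole range, exceeded Dixon's 95% critical value. This was so in 4 of 86 groups of 4 libraries, where chance gives about 4.3. GC7 replicate 3 stood below the others for *Slc1a5* (ratio 0.962, 406 CPM against 487 to 489.9), for *Slc43a2* (0.960, 37.0 against 44.1 to 44.4 CPM) and for *Eif5a* (0.918, 964 against 1192 to 1213 CPM). Mock replicate 1 stood above the others for *Gem* (0.868, 52.5 against 44.8 to 45.9 CPM). Without GC7 replicate 3, the log2 fold change of *Slc1a5* was 0.45 in place of 0.38, and the gene was still called (adjusted p = 6.9e-05, edgeR).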

How the results depend on the processing

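The same 6 transporters were called higher under all 18 alternative fits, and none was called lower. Leaving out Mock replicate 2 together with GC7 replicate 3, a choice made after seeing the data, brought the number to 7, with *Slc3a2* added (0.20). Leaving out Mock replicate 2 alone lowered the log2 fold changes of *Slc7a1* (0.63), *Slc38a1* (0.52), *Slc7a6* (0.39), *Slc1a4* (0.91) and *Slc6a9* (1.41). The sign of *Slc7a5* is not settled. Its log2 fold change was 0.0781 with library totals and 0.0252 with upper quartile factors, and lay between -0.0952 and 0.127 when 1 library was removed (0.0187 without Mock replicate 1, 0.00301 without Mock replicate 4, 0.127 without GC7 replicate 3), and was 0.0788 without both libraries named above. *Slc38a2* likewise turned positive with library totals (0.0734), with upper quartile factors (0.0226) and without GC7 replicate 4 (0.0125), with a span of -0.0670 to 0.0125 over the fits on 7 libraries. These values never passed the threshold. Without a filter, 7 in place of 5 other amino acid transporters were called higher and 4 in place of 2 lower, from 35 in place of 12 tested. With 1 library removed, 4 to 6 of these other transporters were called higher and 2 to 3 lower. Library totals moved the median log2 fold change of all genes from 0.02 to 0.11, with 3346 genes higher and 2056 lower (61.9% of calls higher, against 49.5% with TMM). With the replicate number as a block, 6 transporters were again called higher, 2382 genes were higher and 2485 lower, and 4759 of the 5214 calls were shared. The deviations of same-numbered libraries from their group means correlated with r from -0.18 to 0.27 (mean 0.04, beside -0.02 for different numbers). These values do not settle whether the libraries are paired, and the numbers were not taken as pairs. A paired sign permutation of the ratios cannot go below p = 0.125, and the ratio differences moved by less than 1 SD with 7 libraries (-0.19 to -0.05 for *Slc7a5* to *Slc3a2*, -0.66 to -0.51 for *Slc1a5* to *Slc1a4*, 0.58 to 0.66 for *Slc38a1* to *Slc38a2*). Protein levels and uptake were not measured by these counts.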
